A study of Mus musculus with 16 samples.

Results

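The comparison described here set mice born by cesarean section against mice born vaginally, both on normal drinking water. It used 8 of the 16 colon libraries of the series: CON_CS, cesarean birth (CS), with 4 libraries, and CON_VD, vaginal delivery (VD), with 4 libraries. All were wild-type adult mice of ICR, an outbred stock, so littermates and unrelated animals differ in genotype. The remaining 8 libraries, DSS_CS and DSS_VD, came from mice given 3% dextran sulfate sodium (DSS), a sulfated polysaccharide that damages the colonic epithelium, over 8 days, and serve below only to show the same genes in a second pair of delivery groups. No source used here gives age in weeks, sex or litter, or says that each library came from a separate mouse, and a p-value then speaks only of the scatter among these libraries, which may be technical. Levels are in FPKM, sequenced fragments per kilobase of gene and per unit of library depth. A gene was compared when its FPKM reached 1 in at least 4 of the 8 libraries, which left 13275 of 39328 genes. Differences are given as CON_CS minus CON_VD on the log2(FPKM + 1) scale ± SE, a scale that understates the change of low genes. P-values are from limma, adjusted over all genes compared by the Benjamini-Hochberg method, and a gene is said to have risen or fallen only where this adjusted p was under 0.05.

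The colon is lined by absorptive colonocytes, which take up salt and water, and by goblet cells, which secrete mucus and antibacterial proteins into the lumen. Antibody-secreting cells beneath this lining release IgA, which the epithelium carries to the surface, and group 3 innate lymphoid cells (ILC3) act on the same epithelium through interleukin-22. A vaginally born mouse meets the maternal vaginal and fecal bacteria at birth, and a mouse delivered by cesarean section does not meet them by that route. By its title, the study concerned ILC3 and the susceptibility to colitis that follows cesarean birth.

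Epithelial and smooth muscle genes were both abundant in the libraries. Epcam, an adhesion protein of all gut epithelial cells named here as a check, was at 756, 651, 665 and 618 FPKM in CON_VD and 618, 687, 683 and 730.2 in CON_CS. The mean log2(FPKM + 1) of 27 epithelial identity genes was 5.72 to 5.87 over the 8 libraries, and that of 17 smooth muscle genes 5.69 to 6.19. Pearson correlations of log2(FPKM + 1) were 0.952 to 0.976 within CON_VD, 0.967 to 0.977 within CON_CS and 0.931 to 0.963 between the groups. FPKM sums ran from 295438 to 343423, and read depth is unknown. Several libraries stood apart from their group. CON_VD replicate 1 had 138 genes more than 1 above each of the other 3 CON_VD libraries on the log2(FPKM + 1) scale. Its mean log2(FPKM + 1) over 6 B cell follicle genes was 4.04, against 1.81 to 2.27 in the other 7 libraries. CON_VD replicate 4 had a heat shock score (the mean log2(FPKM + 1) of 19 genes) of 5.86, above the 4.33 to 4.93 of all others. CON_VD replicate 3 had the highest adipocyte score, 3.96 against 1.55 to 2.67. In CON_CS replicate 2, immunoglobulin genes held 1.49% of FPKM, against 0.304% to 0.373% in the other CON_CS libraries and 1.76% to 2.39% in CON_VD. CON_CS replicate 1 held 185 FPKM of the prostate gene Pbsn, which was at most 0.375 FPKM in the other 7.

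At the threshold, 54 of 13275 genes (0.407%) differed, 24 higher (0.181%) and 30 lower (0.226%) in CON_CS. On the log2(FPKM + 1) scale the falls were the larger changes. Their median difference was -1.54 and they reached -7.33, while the rises had a median of 0.89 and reached 2.56. A difference of at least 1 on this scale was seen in 7 rises and 19 falls. It is not the same as a 2-fold change in FPKM, which low genes reach at a smaller difference. All 54 had group ranges that did not overlap, but so did 1422 of all genes compared (10.7%), 837 higher (6.31%) and 585 lower (4.41%). Over all genes the median log2 difference was 0.03, with 7418 above 0 (55.9%), 5857 below 0 (44.1%) and 2598 (19.6%) at an unadjusted p under 0.05. These shares, and those of ranges apart, are the background for the counts of every gene list below. Rescaling every library to the same FPKM sum moved that median to 0.13 and gave 27 higher and 18 lower, and median-of-ratios scaling gave 22 higher and 39 lower, so the balance of rises and falls depended on the scaling. Among the 54 were 7 immunoglobulin segments, all lower, 8 predicted or clone-named genes, 6 higher and 2 lower, and 9 further genes under 5 FPKM, 6 higher and 3 lower. A count of 5 of the 54 reached the filter through 1 group alone. The number of calls rested on single libraries. Without CON_VD replicates 1 to 4 in turn it was 12, 36, 0 and 275, and without CON_CS replicates 1 to 4 it was 15, 71, 1 and 1. In the limma fit without CON_VD replicate 3, in which no gene passed, 1875 genes had an unadjusted p under 0.05. Because the group ranges of all 54 were apart, no sign could turn in these 8 fits. The size of the 54 differences moved little: no log2 difference moved by more than 1.18 times. No gene stayed under the threshold in more than 5 of the 8.

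**Figure D1:**
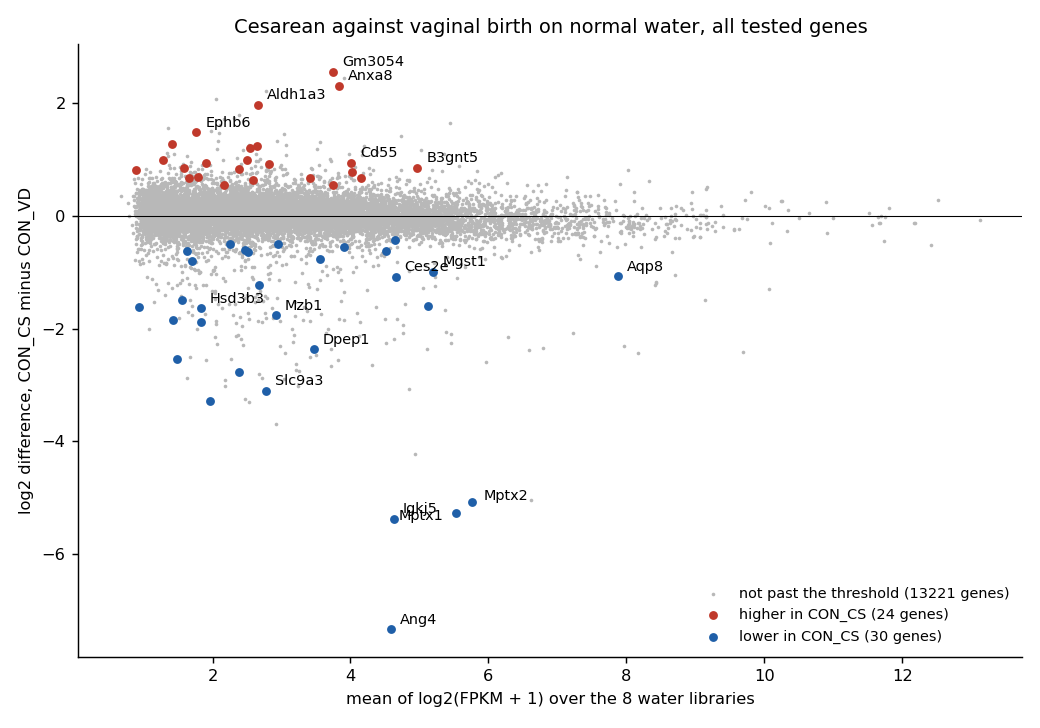
Each point is 1 of the 13275 genes compared, with its mean log2(FPKM + 1) over the 8 water libraries across and its log2 difference, CON_CS minus CON_VD, upward. The 24 red points are genes higher and the 30 blue points genes lower in CON_CS at an adjusted p under 0.05; the 3 lowest named blue points that encode secreted proteins, Ang4, Mptx1 and Mptx2, lie at -5.07 or lower.

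Outside the immunoglobulin segments, the 3 largest falls were in genes of secreted antibacterial and lectin-like proteins. Ang4, an angiogenin with antibacterial activity, Mptx1 and Mptx2, a pair of mucosal pentraxins, were abundant in every vaginally born library and far lower in every cesarean one. Since Mptx1 and Mptx2 are near copies of each other and fell together, the 250 bases before their annotated starts are shown with those of Ang4 for comparison. The sequences are RefSeq's on GRCm38.p6, read 5′ to 3′ along each gene's strand: Mptx1 at chr1:174330268-174330517 on the plus strand, Mptx2 at chr1:173277757-173278006 on the minus strand and Ang4 at chr14:51773591-51773840 on the minus strand. Capitals mark GTTAATATTAAC, a palindrome of GTTAAT, the half-site of the gut and liver transcription factor HNF1.
Mptx1: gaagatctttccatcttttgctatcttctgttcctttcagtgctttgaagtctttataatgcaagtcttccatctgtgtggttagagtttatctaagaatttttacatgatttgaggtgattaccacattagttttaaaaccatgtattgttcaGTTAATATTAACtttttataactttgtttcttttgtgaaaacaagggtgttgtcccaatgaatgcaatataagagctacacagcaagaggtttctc
Mptx2: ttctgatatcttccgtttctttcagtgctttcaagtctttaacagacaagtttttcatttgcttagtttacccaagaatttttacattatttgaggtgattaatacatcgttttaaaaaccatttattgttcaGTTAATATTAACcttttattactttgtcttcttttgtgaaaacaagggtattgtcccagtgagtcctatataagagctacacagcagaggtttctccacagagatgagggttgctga
Ang4: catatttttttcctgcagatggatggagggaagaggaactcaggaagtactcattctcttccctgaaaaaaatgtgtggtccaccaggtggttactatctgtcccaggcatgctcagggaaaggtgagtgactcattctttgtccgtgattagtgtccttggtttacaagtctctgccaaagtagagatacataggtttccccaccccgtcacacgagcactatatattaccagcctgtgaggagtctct
The palindrome begins 96 bases before the RefSeq start of Mptx1 and 117 before that of Mptx2, and it is not in the Ang4 window. GENCODE M21 starts Mptx2 21 bases further upstream, and from that start the distance is 96 bases. It is the longest palindrome shared by the 2 pentraxin windows and was noticed on reading them, so its presence in both was fixed by that choice. Searched on both strands, GTTAATATTAAC was in 2 of 32851 RefSeq windows of the same length (0.00609%), those of Mptx1 and Mptx2. The full HNF1 consensus GTTAATNATTAAC, which differs from it by the central N, was in 3 windows (0.00913%) and in none of the 32 genes past the threshold that had a window. The half-site GTTAAT, which both contain, was in 6.43% of windows. A match is a description of the letters and not a binding site. Aligned, the 2 pentraxin windows shared 197 of 228 paired bases (86.4%), and the annotated transcripts 734 of 794 (92.4%). With copies this close, the FPKM of each depends on how shared reads were assigned. Ang4 is 90.2% identical to Ang5 and 86.6% to Ang over paired transcript bases, so the same holds for it.

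Ang4 was at 71.1, 1276, 479 and 194 FPKM in CON_VD and 2.39, 0.691, 0.158 and 0.914 in CON_CS, replicates 1 to 4 in order. The lowest CON_VD library stood at 71.1 FPKM and the highest CON_CS library at 2.39, although the CON_VD values themselves spanned a wide range. Ang4 fell (log2 -7.33 ± 0.78, adjusted p = 0.0187). Mptx1 was at 65.5, 806, 453 and 278 FPKM in CON_VD and 7.09, 5.37, 5.85 and 7.66 in CON_CS, and fell (log2 -5.27 ± 0.64, adjusted p = 0.0226). Mptx2 was at 66.9, 998, 501 and 293 FPKM in CON_VD and 10.7, 6.68, 6.2 and 11.1 in CON_CS, and fell (log2 -5.07 ± 0.70, adjusted p = 0.0333). For both pentraxins CON_VD replicate 1 was the lowest and replicate 2 the highest of the vaginally born libraries, and the CON_CS libraries lay close together. In whole-colon RNA, fewer cells of a type and less RNA per cell cannot be told apart, for these genes and for every cell type marker below.

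Of 24 listed secreted antibacterial and lectin-like proteins, 17 were compared: 3 fell, none rose, 11 differences were below 0 and the median was -0.41, beside 0.03 for all genes. The ranges of 6 were apart downward, and of 1 upward. Over all genes 0.226% fell, 44.1% were below 0 and 4.41% were apart downward. The median of the list was -0.65 without CON_VD replicate 3. Retnlb, an antibacterial protein of goblet cells, was at 425, 865, 549 and 500.1 FPKM in CON_VD and 174, 0.881, 0.892 and 135 in CON_CS. Itln1, a lectin that binds microbial sugars, was at 181, 88.9, 90.2 and 206 FPKM in CON_VD and 42.8, 0.253, 27.4 and 0.643 in CON_CS. Both were lower in all 4 CON_CS libraries, but within CON_CS they split widely, Retnlb high in replicates 1 and 4 and Itln1 in replicates 1 and 3, and neither passed (log2 -5.05 ± 1.52, adjusted p = 0.147 and log2 -4.22 ± 1.13, adjusted p = 0.125). Reg4, a lectin of goblet and endocrine cells, was at 358, 737, 516 and 525 FPKM in CON_VD and 262, 185, 166 and 342 in CON_CS (log2 -1.17 ± 0.27, adjusted p = 0.0992). Dmbt1, a scavenger receptor secreted onto the mucosa, had the opposite sign and ranges apart: it was at 149.9, 231, 213 and 202 FPKM in CON_VD and 334, 293, 451 and 326 in CON_CS (log2 0.82 ± 0.17, adjusted p = 0.0837). Lypd8, a surface protein that keeps flagellated bacteria off the epithelium, was the most abundant of the list, at 5352 ± 814 against 6475 ± 195 FPKM (log2 0.29 ± 0.15, adjusted p = 0.333). The lysozyme Lyz1 was at 17.7, 2.61, 2.28 and 3.65 FPKM in CON_VD and 1.25, 2.58, 1.93 and 1.97 in CON_CS, with its highest value in CON_VD replicate 1, the library with high B cell follicle genes (adjusted p = 0.317). Zg16, a lectin that aggregates Gram-positive bacteria, was at 2147 ± 355 against 1747 ± 293 FPKM (adjusted p = 0.358), and the oxidase gene Duox2, which makes hydrogen peroxide at the surface, at 11.7 ± 2.61 against 15.4 ± 4.76 FPKM (adjusted p = 0.384).

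**Figure D2:**
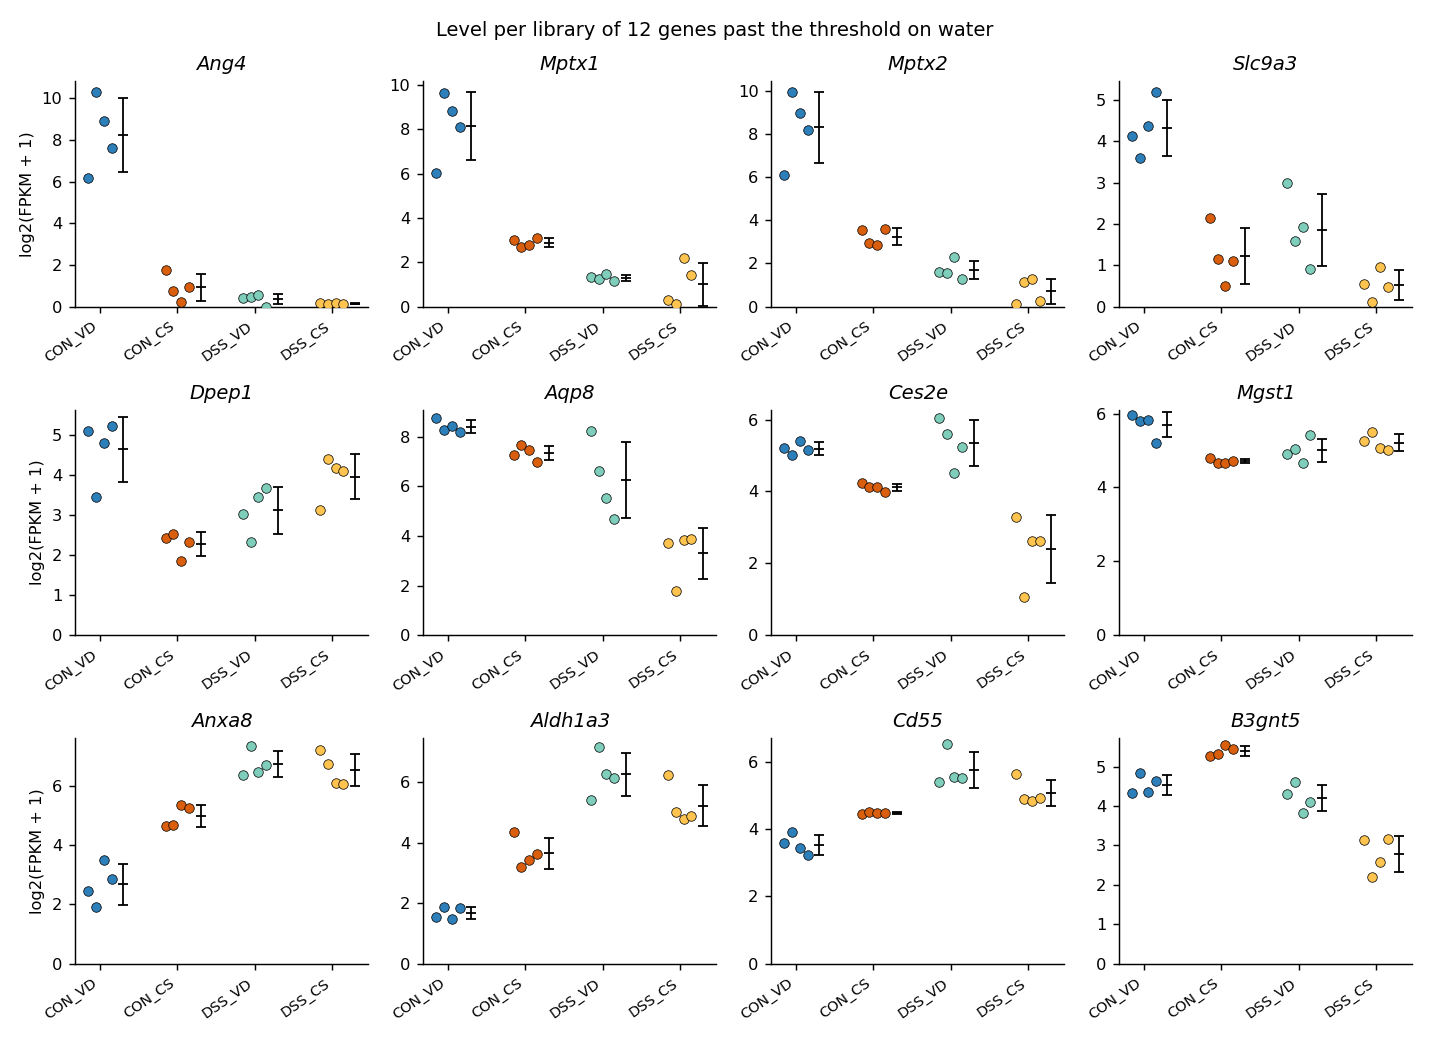
Each panel gives 1 gene that passed the threshold on water, as log2(FPKM + 1) in each of the 16 libraries, with the mean and SD of each group of 4 beside the points. In the 2 water groups, at left in each panel, the points do not overlap for any of the 12 genes. Ang4 is near the bottom of the axis in CON_CS and in both DSS groups. Mptx1 and Mptx2 are lower in CON_CS than in CON_VD and lower again in both DSS groups.

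Genes of the mucus itself gave no call. Of 21 goblet cell mucus genes compared, none passed, 16 were below 0, against 44.1% of all genes, and the median was -0.22. Clca1, a mucus-processing metalloprotease, was at 995, 3057, 2028 and 1302 FPKM in CON_VD and 878, 557, 700 and 627 in CON_CS (log2 -1.31 ± 0.33, adjusted p = 0.113), and its highest CON_CS value lay under its lowest CON_VD value. Fcgbp, a structural mucus protein, was at 269.8 ± 93.6 against 141 ± 34.4 FPKM (log2 -0.89 ± 0.26, adjusted p = 0.141), and Spink4, a protease inhibitor of goblet cells, at 511 ± 74.9 against 335 ± 95 FPKM (log2 -0.64 ± 0.21, adjusted p = 0.168). The ranges of these last overlapped.

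Salt and water transporters of the surface colonocyte were among the falls. Of 28 genes compared, 2 fell, none rose, 20 were below 0 and 7 had ranges apart downward, against 0.226%, 44.1% and 4.41% of all genes that fell, were below 0 or were apart downward (median -0.25). Slc9a3, the apical sodium-hydrogen exchanger NHE3 (ENSMUSG00000036123, chromosome 13, 74121457 to 74169442, plus strand), was at 16.4, 11.1, 19.8 and 35.9 FPKM in CON_VD and 3.4, 1.23, 0.405 and 1.14 in CON_CS. The lowest CON_VD value, 11.1 FPKM, was above the highest CON_CS value, 3.40, and Slc9a3 fell (log2 -3.1 ± 0.40, adjusted p = 0.0266). Aqp8, a water channel (ENSMUSG00000030762, chromosome 7, 123462291 to 123468004, plus strand), was at 432, 305, 349.8 and 292 FPKM in CON_VD and 151, 202, 177 and 127 in CON_CS and fell (log2 -1.07 ± 0.17, adjusted p = 0.0457). Among genes that did not pass, Guca2a, the hormone guanylin, and Aqp4, another water channel, were named after their values were seen. Guca2a was at 1146, 719, 1416 and 688 FPKM in CON_VD and 444, 309, 169.7 and 535 in CON_CS (log2 -1.5 ± 0.37, adjusted p = 0.111), with ranges apart. Aqp4 was at 37.1, 28.6, 54.3 and 99.8 FPKM in CON_VD and 31.5, 7.94, 4.45 and 6.61 in CON_CS (log2 -2.26 ± 0.56, adjusted p = 0.112), and CON_CS replicate 1 lay inside the CON_VD range. Slc4a4, a basolateral sodium bicarbonate cotransporter, had the opposite sign, at 7.41, 17.5, 9.78 and 6.97 FPKM in CON_VD and 23, 21.1, 23.6 and 21.1 in CON_CS (log2 1.11 ± 0.24, adjusted p = 0.0851), with ranges apart. Slc16a5, a monocarboxylate transporter, was at 14, 17.4, 13.2 and 13 FPKM in CON_VD and 8, 9.48, 7.16 and 7.43 in CON_CS and fell (log2 -0.77 ± 0.12, adjusted p = 0.0363).

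Brush border enzymes and nutrient transporters had 1 fall among 20 compared, with 14 below 0 (median -0.09, and -0.14 without CON_CS replicate 2). Dpep1, a membrane dipeptidase that also cleaves leukotrienes (ENSMUSG00000019278, chromosome 8, 123186242 to 123201812, plus strand), was at 33.3, 9.99, 27.1 and 36.7 FPKM in CON_VD and 4.43, 4.75, 2.62 and 4 in CON_CS, and its lowest CON_VD value, in replicate 2, was still above every CON_CS value. It fell (log2 -2.37 ± 0.36, adjusted p = 0.0363). Fabp2, the intestinal fatty acid binding protein, was at 24.9, 16.4, 21.2 and 32.1 FPKM in CON_VD and 7.9, 7.15, 5.42 and 15.4 in CON_CS (log2 -1.36 ± 0.29, adjusted p = 0.0851), and Slc10a2, the apical bile acid transporter, at 0.863, 1.04, 0.944 and 0.328 FPKM in CON_VD and 1.91, 3.87, 4.01 and 1.71 in CON_CS (log2 1.07 ± 0.24, adjusted p = 0.0906). Both had ranges apart, Fabp2 downward and Slc10a2 upward.

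Enzymes that break down or conjugate small molecules included the smallest adjusted p outside the immunoglobulin segments. Ces2e, an intestinal carboxylesterase that hydrolyses lipid esters and drugs (ENSMUSG00000031886, chromosome 8, 104926260 to 104934672, plus strand), was at 35.8, 31.2, 41.7 and 34.7 FPKM in CON_VD and 17.7, 16.5, 16.5 and 14.8 in CON_CS. The values of each group lay within a narrow band, and Ces2e fell (log2 -1.08 ± 0.10, adjusted p = 0.015). Its relatives Ces2c, at 92.7, 113, 121 and 69.3 FPKM in CON_VD and 50, 63.2, 65.5 and 58.6 in CON_CS (log2 -0.7 ± 0.17, adjusted p = 0.11), and Ces2a, at 25.8, 34.5, 28.1 and 22.2 FPKM in CON_VD and 19.7, 21.5, 20.9 and 19.5 in CON_CS (log2 -0.4 ± 0.12, adjusted p = 0.155), had ranges apart in the same direction without passing. Of 10 carboxylesterases compared, 7 were below 0 and the median was -0.36. Mgst1, a membrane-bound glutathione transferase, was at 61.1, 55, 56 and 35.6 FPKM in CON_VD and 26.6, 24.5, 24.3 and 25.2 in CON_CS and fell (log2 -0.99 ± 0.15, adjusted p = 0.0384). CON_VD replicate 4 was the nearest of its group to the CON_CS values, which ran from 24.3 to 26.6 FPKM. Mgst1 was the 1 of 31 conjugating enzymes past the threshold, and Gsta3, another glutathione transferase, was at 2.63, 2.81, 3.62 and 3.79 FPKM in CON_VD and 6.39, 8.03, 5.74 and 4.27 in CON_CS (log2 0.74 ± 0.17, adjusted p = 0.0937), the opposite sign. Hagh, the second enzyme of methylglyoxal detoxification, was at 19.3, 17.6, 16.3 and 15.5 FPKM in CON_VD and 10.2, 11.4, 12 and 11.8 in CON_CS and fell (log2 -0.55 ± 0.09, adjusted p = 0.0467). None of 19 cytochrome P450 genes on the list passed: Cyp2s1 was at 13.1 ± 2.24 against 22.7 ± 2.89 FPKM (log2 0.76 ± 0.14, adjusted p = 0.064) and Cyp4f14 at 2.69 ± 0.753 against 1.15 ± 0.0858 FPKM (log2 -0.76 ± 0.14, adjusted p = 0.0655), with ranges apart in opposite directions. Cyp2c69, outside the list and chosen once its values were known, was at 3.39, 3.99, 6.29 and 2.69 FPKM in CON_VD and 1.08, 0.801, 0.286 and 0.993 in CON_CS and fell (log2 -1.48 ± 0.23, adjusted p = 0.0363).

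Of 19 genes of steroid metabolism and corticoid response compared, 2 fell, none rose and 5 had ranges apart downward, against 0.226% and 4.41% of all genes that fell or were apart downward. Hsd3b3, a steroid dehydrogenase of progesterone and corticosteroid synthesis (ENSMUSG00000062410, chromosome 3, 98741523 to 98763127, minus strand), was at 6.25, 4.24, 6.15 and 4.75 FPKM in CON_VD and 1.81, 1.25, 0.547 and 0.71 in CON_CS and fell (log2 -1.64 ± 0.20, adjusted p = 0.0226). Sult2b1, which sulfates cholesterol and steroids, was at 7.1, 5.94, 6.18 and 5.46 FPKM in CON_VD and 3.57, 3.82, 3.87 and 3.11 in CON_CS and fell (log2 -0.64 ± 0.10, adjusted p = 0.0363). Fkbp5, a chaperone induced by glucocorticoids, was at 8.63, 9.61, 11.6 and 7.24 FPKM in CON_VD and 5.38, 6.38, 4.95 and 5.59 in CON_CS (log2 -0.63 ± 0.13, adjusted p = 0.0837) with ranges apart. The median of the 19 was -0.04, between -0.11 without CON_VD replicate 4 and 0.003 without CON_CS replicate 1, and it was 0.04 when libraries were rescaled to the same sum. Aldh1a3, an enzyme that makes retinoic acid from retinaldehyde (ENSMUSG00000015134, chromosome 7, 66390890 to 66427517, minus strand), went the other way. It was at 1.88, 2.64, 1.75 and 2.56 FPKM in CON_VD and 19.5, 8.06, 9.74 and 11.3 in CON_CS, with the lowest CON_CS value of 8.06 FPKM above the highest CON_VD value of 2.64, and rose (log2 1.97 ± 0.23, adjusted p = 0.0226). Rdh16, a dehydrogenase of retinol and of steroids outside the list, was at 9.54, 12.1, 10.7 and 13.7 FPKM in CON_VD and 20.7, 18.4, 19.8 and 21.9 in CON_CS and rose (log2 0.77 ± 0.11, adjusted p = 0.036). Of 14 retinoid genes on the list, Aldh1a3 alone passed. Rbp4, the retinol carrier, was at 5.14 ± 1.07 against 2.98 ± 0.314 FPKM (log2 -0.61 ± 0.13, adjusted p = 0.0885) and Dhrs3, which reduces retinaldehyde, at 10.9 ± 0.337 against 8.21 ± 1.04 FPKM (log2 -0.38 ± 0.09, adjusted p = 0.107). The median of the list was -0.04, and 0.05 after rescaling, and it lay between -0.11 without CON_CS replicate 3 and -0.02 without CON_VD replicate 3.

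The largest rise of a protein-coding gene was that of Anxa8, a phospholipid-binding annexin of squamous and injured epithelium (ENSMUSG00000021950, chromosome 14, 34085981 to 34100571, plus strand). It was at 4.43, 2.73, 10.5 and 6.26 FPKM in CON_VD and 24.2, 24.6, 40.4 and 37.5 in CON_CS, so that the lowest cesarean library was more than 2-fold above the highest vaginal one, and it rose (log2 2.31 ± 0.33, adjusted p = 0.0333). Anxa8 was the 1 of 21 genes of the wound-associated and fetal-like list that passed. Of the list 9 were above 0 and 12 below, 2 had ranges apart upward and 2 downward, and the median was -0.15, between -0.25 without CON_VD replicate 4 and -0.09 without CON_VD replicate 1. Besides Anxa8, the gene apart upward was F3, tissue factor, named after its values were seen, at 18.1, 17, 16.6 and 11.4 FPKM in CON_VD and 18.8, 21.1, 23.4 and 23.1 in CON_CS (log2 0.44 ± 0.14, adjusted p = 0.168). Ccn1, a matricellular protein, was at 4.89 ± 1.96 against 1.89 ± 0.411 FPKM (log2 -0.98 ± 0.23, adjusted p = 0.0993) and Ly6d, a surface protein of squamous epithelium, at 5.28 ± 3.33 against 1.58 ± 0.965 FPKM (log2 -1.22 ± 0.36, adjusted p = 0.141). Krt14, a basal keratin of stratified epithelium, was at 0.895, 0.534, 0.972 and 0.558 FPKM in CON_VD and 2.38, 1.7, 2.86 and 2.94 in CON_CS and rose (log2 0.99 ± 0.15, adjusted p = 0.0363). It passed the filter through CON_CS alone. The other 12 keratin and cornified envelope genes compared did not pass.

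Cd55, a surface protein that dissociates complement convertases and so shields cells from complement (ENSMUSG00000026399, chromosome 1, 130439027 to 130462744, minus strand), was at 10.9, 14.3, 9.79 and 8.38 FPKM in CON_VD and 21.2, 21.8, 21.3 and 21.5 in CON_CS. The 4 cesarean libraries ran only from 21.2 to 21.8 FPKM, all above the highest vaginal value, and Cd55 rose (log2 0.94 ± 0.14, adjusted p = 0.036). A pair of noncoding genes beside it rose with it, both named after their values were seen. Gm15675, a lincRNA on the same strand whose 5′ end lies 1836 bases beyond the 3′ end of Cd55 (chromosome 1, 130429781 to 130437191, minus strand), was at 3.39, 3.03, 2.45 and 2.62 FPKM in CON_VD and 7.52, 7.96, 10.4 and 6.15 in CON_CS and rose (log2 1.21 ± 0.15, adjusted p = 0.0226). Gm15674, annotated as antisense on the plus strand (130422824 to 130437914), contains the whole of Gm15675 and was at 0.541, 1.22, 0.614 and 0.542 FPKM in CON_VD and 3.49, 2.77, 3.95 and 2.43 in CON_CS (log2 1.27 ± 0.16, adjusted p = 0.0253). No source used here says whether the library kit marked strand, so reads of Gm15674 and Gm15675 cannot be told apart. Of 18 complement genes compared, Cd55 alone passed. Clu, a complement inhibitor, was at 39.1, 9.22, 18.2 and 10.7 FPKM in CON_VD and 5.95, 6.75, 9.14 and 6.31 in CON_CS (log2 -1.13 ± 0.38, adjusted p = 0.179), the opposite sign, with CON_VD replicate 1 highest.

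B3gnt5, the glycosyltransferase that starts lacto-series glycolipids (ENSMUSG00000022686, chromosome 16, 19760208 to 19772753, plus strand), was at 19, 27.6, 19.3 and 24 FPKM in CON_VD and 37.7, 38.8, 46.2 and 42.3 in CON_CS and rose (log2 0.86 ± 0.13, adjusted p = 0.0363). Hr, a corepressor of nuclear receptors, was at 2.81, 4.13, 5.14 and 4.71 FPKM in CON_VD and 9.5, 8.17, 9.19 and 8.19 in CON_CS and rose (log2 0.93 ± 0.15, adjusted p = 0.0384). Neither gene's groups overlapped. Nedd9, a scaffold protein of focal adhesions, rose (log2 0.67 ± 0.10, adjusted p = 0.0388), Xrn2, a nuclear exoribonuclease, rose (log2 0.55 ± 0.08, adjusted p = 0.0363), and Itpripl2 rose (log2 1 ± 0.15, adjusted p = 0.0363). Among the 6 low-level rises under 5 FPKM, named after their values were seen, were Plat, the tissue plasminogen activator, at 1.73 ± 0.375 against 4.25 ± 0.701 FPKM (adjusted p = 0.0333), and Ephb6, an ephrin receptor without kinase activity, at 1.08 ± 0.504 against 4.8 ± 1.22 FPKM (adjusted p = 0.0333). The largest rise of all was Gm3054, a predicted lincRNA 4707 bases from the mucin gene Muc3 on its strand, at 3.17, 8.42, 2.01 and 7.02 FPKM in CON_VD and 38.5, 22.9, 51 and 22.3 in CON_CS (log2 2.56 ± 0.40, adjusted p = 0.0384). Muc3 itself was at 1321 ± 341 against 919.8 ± 52.9 FPKM (adjusted p = 0.219).

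The remaining falls named by size were in genes of varied roles. Foxd2, a forkhead transcription factor, was at 8.27, 7.66, 7.75 and 11.8 FPKM in CON_VD and 3.07, 3.96, 2.72 and 2.97 in CON_CS and fell (log2 -1.23 ± 0.15, adjusted p = 0.0226). Metrnl, a secreted protein, fell, with means of 27.7 ± 3.65 against 17.5 ± 1.14 FPKM (adjusted p = 0.0498), and the transmembrane protein gene Tmem82 fell, with means of 5.85 ± 0.713 against 3.49 ± 0.13 FPKM (adjusted p = 0.0363). Tepsin, an accessory protein of the AP-4 coat, and Ppp1r37, a regulator of protein phosphatase, had the smallest falls (log2 -0.5 ± 0.08 and -0.43 ± 0.07, adjusted p = 0.0457 and 0.0384). The values of Ppp1r37 were tight in both groups, 27.7, 28, 28.5 and 27.8 FPKM in CON_VD and 19.6, 19.9, 21.1 and 21.7 in CON_CS. The clone-named gene 1810065E05Rik, also singled out for its values, was at 64.4, 45.3, 69.6 and 63.6 FPKM in CON_VD and 29.4, 16.8, 12.5 and 21.3 in CON_CS and fell (log2 -1.6 ± 0.24, adjusted p = 0.0363).

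Among genes of antibody-secreting cells, Mzb1 passed the threshold. Of 21 genes of antibody-secreting cells and IgA transport compared, 1 fell, none rose, 19 were below 0 and 8 had ranges apart downward, against 4.41% of all genes. The median was -0.59. Mzb1, a chaperone that antibody-secreting cells use to assemble immunoglobulin, was at 18.3, 12.8, 13.9 and 8.52 FPKM in CON_VD and 1.96, 6, 2.65 and 2.75 in CON_CS and fell (log2 -1.76 ± 0.29, adjusted p = 0.0457). Igha, the heavy chain of IgA, was at 704, 448, 562 and 526 FPKM in CON_VD and 74.3, 348, 67.9 and 85.7 in CON_CS (log2 -2.31 ± 0.47, adjusted p = 0.0766). Jchain, which joins IgA into dimers, was at 271, 200.2, 238 and 181 FPKM in CON_VD and 23.6, 122, 24.7 and 40.4 in CON_CS (log2 -2.38 ± 0.46, adjusted p = 0.0707). In both, CON_CS replicate 2 came near the CON_VD values while the other 3 cesarean libraries were several times lower, and the groups still did not overlap. Igkc, the kappa light chain, was at 2521, 1610.1, 1906 and 1732 FPKM in CON_VD and 239, 1007, 218 and 309.8 in CON_CS (log2 -2.42 ± 0.44, adjusted p = 0.064). Derl3, of endoplasmic reticulum protein disposal in plasma cells, was at 2.1, 1.71, 2.23 and 1.8 FPKM in CON_VD and 1.14, 0.791, 0.844 and 0.394 in CON_CS (log2 -0.74 ± 0.14, adjusted p = 0.0669), and Ccr10, the receptor that draws IgA cells to the gut and reached the filter through CON_VD alone, at 1.35, 1.26, 1.36 and 1.39 FPKM in CON_VD and 0.656, 0.609, 0.758 and 0.253 in CON_CS (log2 -0.59 ± 0.12, adjusted p = 0.0752). In these 2 genes CON_CS replicate 2 did not stand out. The median of the list was -0.78 without CON_CS replicate 2 and -0.47 without CON_VD replicate 1.

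Nothing passed among the epithelial partners of IgA, Pigr and Ccl28, or the survival factors Tnfsf13b and Tnfsf13. Pigr, which carries IgA across the epithelium, was at 899 ± 194 against 848 ± 79 FPKM (log2 -0.06 ± 0.17, adjusted p = 0.866), and Ccl28, the epithelial ligand of Ccr10, at 39.7 ± 14.2 against 32.6 ± 8.3 FPKM (log2 -0.25 ± 0.24, adjusted p = 0.592). Tnfsf13b, the survival factor BAFF, was at 0.785 ± 0.275 against 1.29 ± 0.154 FPKM (log2 0.37 ± 0.12, adjusted p = 0.172) and Tnfsf13, the related factor APRIL, at 12.9 ± 1.9 against 11.3 ± 2.2 FPKM (log2 -0.18 ± 0.14, adjusted p = 0.505). Of 177 immunoglobulin segments that reached the filter, 170 were below 0 with a median of -1.52, and 7 passed the filter through 1 group alone. Among them 7 fell, and the gene with the smallest adjusted p of the whole comparison, Ighv1-20, was at 4.94, 5.01, 3.41 and 3.27 FPKM in CON_VD and 0.475, 0.365, 0.23 and 0.585 in CON_CS (adjusted p = 0.00662). It reached the filter through CON_VD alone. The joining segment Igkj5 was at 251, 170.1, 104 and 141 FPKM in CON_VD and 13.2, 4.27, 1.45 and 0.166 in CON_CS (log2 -5.38 ± 0.67, adjusted p = 0.0253). Segments share sequence with one another, so single values depend on how reads were assigned, and both were named after their values were seen.

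Genes that type 3 lymphocytes make or answer to gave no call. Of 30 listed ILC3 and type 17 genes, 13 were compared, 9 of them below 0 (median -0.15, and -0.05 without CON_VD replicate 1), and neither Il22 nor Il17a had a value above 0 in any of the 8 libraries. Il22ra1, the epithelial receptor chain for interleukin-22, was at 8.27, 16.2, 10.7 and 9.43 FPKM in CON_VD and 18.9, 18.5, 20.8 and 15.2 in CON_CS (log2 0.7 ± 0.19, adjusted p = 0.121), and 1 CON_VD library reached into the CON_CS range. Areg, an epithelial growth factor, was at 11.2 ± 5.52 against 6.02 ± 1.55 FPKM (log2 -0.71 ± 0.32, adjusted p = 0.263) and Ahr, the receptor for dietary and bacterial aryl compounds, at 3.22 ± 0.519 against 3.89 ± 0.55 FPKM (log2 0.21 ± 0.12, adjusted p = 0.349). Over the 13 genes the log2 differences ran from -0.71 for Areg to 0.70 for Il22ra1.

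Interferon-stimulated and antigen presentation genes varied widely between libraries of 1 group. Of 34 interferon-stimulated genes compared, none passed, none had ranges apart and 26 were above 0, with a median of 0.49, which was 0.98 without CON_VD replicate 1, 0.26 without replicate 2 and 0.23 without replicate 3. Gbp2, a guanylate-binding protein, was at 40.2, 9.57, 8.68 and 15.2 FPKM in CON_VD and 55.2, 35.5, 39.9 and 41.3 in CON_CS (log2 1.43 ± 0.41, adjusted p = 0.139). Without replicate 1 the CON_VD values all lay under the CON_CS values. For 8 MHC class II genes the median was -0.16, and it lay between -0.36 without CON_VD replicate 3 and 0.28 without CON_VD replicate 1. For 6 B cell follicle genes it was -0.52, between -0.80 without CON_VD replicate 3 and 0.21 without CON_VD replicate 1. Ly6c2, a monocyte marker, was at 3.27, 3.88, 3.53 and 5.34 FPKM in CON_VD and 1.12, 2.79, 0.956 and 1.29 in CON_CS (log2 -1.01 ± 0.21, adjusted p = 0.0837), and Lrmp, a tuft cell and lymphoid marker, at 6.9, 3.35, 4.29 and 3.67 FPKM in CON_VD and 8.48, 13.9, 14.6 and 12 in CON_CS (log2 1.27 ± 0.21, adjusted p = 0.0538). Both had ranges apart without passing.

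Sensors of bacteria gave no call, and the members of smallest p belonged to 1 inflammasome. Naip2, which recognises bacterial secretion system rods, was at 12.6, 18.9, 13.5 and 12.4 FPKM in CON_VD and 22.1, 22.2, 28.4 and 24.6 in CON_CS (log2 0.74 ± 0.14, adjusted p = 0.0705), and its partner Nlrc4, which assembles the inflammasome, at 3.04, 3.44, 4.84 and 5.86 FPKM in CON_VD and 8.03, 7.41, 8.97 and 8.05 in CON_CS (log2 0.81 ± 0.16, adjusted p = 0.0752). The lowest CON_CS value was above the highest CON_VD value for both. Naip1, a needle protein sensor, was at 32 ± 6.75 against 44.9 ± 6.49 FPKM (log2 0.49 ± 0.16, adjusted p = 0.171). None of 23 genes of bacterial sensing passed, and the median was 0.07, and 0.04 without CON_VD replicate 3 or CON_CS replicate 4.

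**Figure D3:**
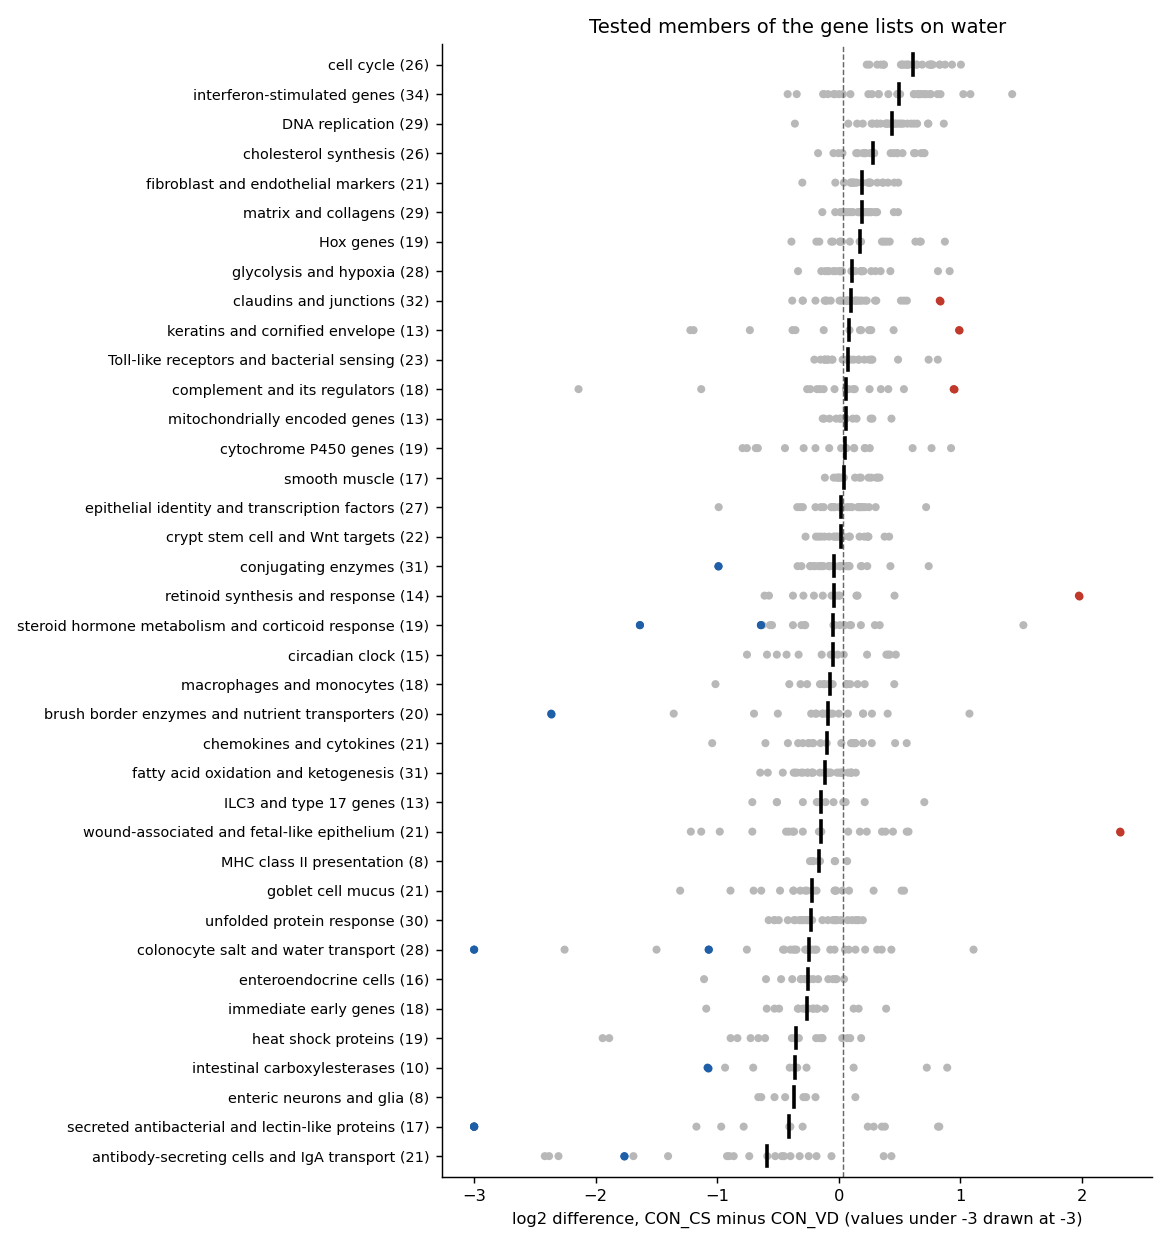
Each row is a gene list with at least 8 genes compared (number in brackets), each point a gene's log2 difference, CON_CS minus CON_VD, and the black bar the list's median; the dashed line is the median of all genes, 0.03. Red and blue points passed the threshold upward and downward. Cell cycle genes, at the top, have a median of 0.61 with no point under 0, and antibody-secreting cell genes, at the bottom, a median of -0.59.

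Proliferation genes were higher in the cesarean libraries without any reaching the threshold. All 26 cell cycle genes had a log2 difference above 0, against 55.9% of all genes, 14 had ranges apart upward, against 6.31%, and the median was 0.61. Ect2, which drives the cleavage of dividing cells, came closest, at 3.73, 4.63, 3.86 and 6.32 FPKM in CON_VD and 9.38, 8.61, 8.09 and 9.43 in CON_CS (log2 0.83 ± 0.14, adjusted p = 0.051). Bub1b, of the spindle checkpoint, was at 3.76, 4.57, 4.18 and 5.48 FPKM in CON_VD and 9.49, 7.85, 6.49 and 9.44 in CON_CS (log2 0.76 ± 0.14, adjusted p = 0.0631) and Tpx2, of spindle assembly, at 4.08, 4.51, 5.4 and 6.33 FPKM in CON_VD and 12.2, 8.99, 7.58 and 10.5 in CON_CS (log2 0.83 ± 0.16, adjusted p = 0.0705). The highest CON_VD value of each was that of replicate 4, the library with the high heat shock score, and without it the median of the list was 0.75. DNA replication genes gave 28 of 29 above 0, 2 with ranges apart and a median of 0.44. Pola1, the catalytic subunit of the primase-polymerase, was at 1.21 ± 0.509 against 2.35 ± 0.431 FPKM (log2 0.62 ± 0.16, adjusted p = 0.12) and Rfc3, a clamp loader subunit, at 3.8 ± 0.613 against 5.34 ± 0.68 FPKM (log2 0.4 ± 0.12, adjusted p = 0.141). Members of a list share the same 8 libraries, so these counts are not independent of each other.

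**Figure D4:**
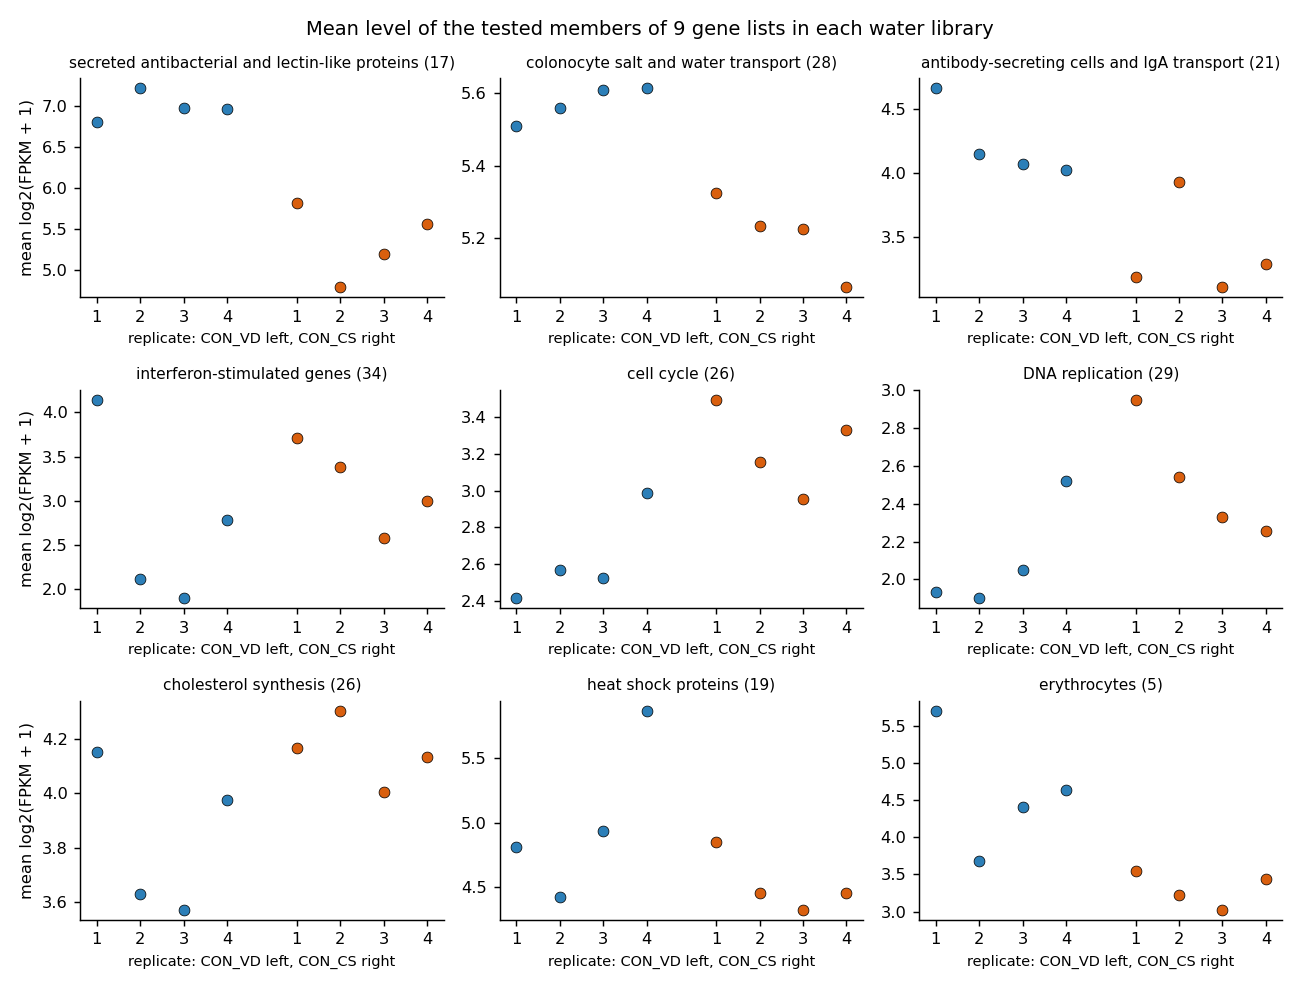
Each panel gives the mean log2(FPKM + 1) of a list's compared genes in each water library, blue for CON_VD and orange for CON_CS, by replicate number. The 4 CON_CS points are all below the 4 CON_VD points for the antibacterial, transport, antibody and erythrocyte lists. CON_VD replicate 1 is highest for the antibody and interferon lists, and CON_VD replicate 4 overlaps CON_CS for the cell cycle list. Vertical axes do not start at 0.

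Cholesterol synthesis showed 23 of 26 genes above 0 and 8 with ranges apart upward, against 55.9% and 6.31% of all genes, again with no call. The median was 0.28, between 0.18 without CON_VD replicate 3 and 0.42 without CON_VD replicate 1. Lss, which closes the sterol ring, was at 3.34, 2.12, 1.67 and 2.63 FPKM in CON_VD and 3.8, 4.4, 5.01 and 4.83 in CON_CS (log2 0.7 ± 0.15, adjusted p = 0.0884), and Stard4, a sterol carrier, at 25.2, 31.6, 24.7 and 25.9 FPKM in CON_VD and 35.9, 39.1, 36.2 and 36.5 in CON_CS (log2 0.45 ± 0.09, adjusted p = 0.0766). Both had every CON_CS value above every CON_VD value. The unfolded protein response went the other way, with 23 of 30 below 0, against 44.1% of all genes. Its median was -0.23, and -0.13 without CON_VD replicate 4, the library with the high heat shock score. Dnajb9, a chaperone of the endoplasmic reticulum, was at 22.4, 23.7, 22.3 and 19.4 FPKM in CON_VD and 14.2, 17.2, 13.6 and 14.5 in CON_CS (log2 -0.53 ± 0.10, adjusted p = 0.0631), Ddit3, the stress factor CHOP, at 11.7 ± 2.39 against 7.43 ± 0.629 FPKM (log2 -0.58 ± 0.13, adjusted p = 0.0926), and Xbp1, a factor of secretory and plasma cells, at 68 ± 2.86 against 54.2 ± 3.71 FPKM (log2 -0.32 ± 0.08, adjusted p = 0.107). The antibody-secreting cell score was 4.02 to 4.66 in CON_VD and 3.10 to 3.92 in CON_CS, and its part in these values was not tested. Heat shock genes had 15 of 19 below 0 and a median of -0.35, which was -0.18 without CON_VD replicate 4. In that library Hspa1a, a near copy of Hspa1b chosen once its values were known, stood at 281 FPKM, against 14.8, 8.68, 5.27 and 6.34 in CON_CS. That value describes a single library and not its group. The heat shock scores of CON_VD replicates 1 to 3 were 4.813, 4.422 and 4.934, beside 4.328 to 4.851 in CON_CS.

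Of junction, matrix and endothelial genes, Ctnnal1, Eln and Clec14a passed. Ctnnal1, an alpha-catenin relative, was at 2.81, 2.35, 2.66 and 3.94 FPKM in CON_VD and 6.2, 6, 5.99 and 5.55 in CON_CS and rose (log2 0.83 ± 0.12, adjusted p = 0.036). It was the 1 of 32 junction genes that passed. Of the 32, 24 were above 0 and 7 had ranges apart upward, against 55.9% and 6.31% of all genes (median 0.10). Cldn8, a claudin that seals against sodium, was at 50.9, 49.8, 44.4 and 62.4 FPKM in CON_VD and 89, 81.2, 63.2 and 74.2 in CON_CS (log2 0.56 ± 0.13, adjusted p = 0.107), and Dsg2, a desmosomal cadherin, at 34.2, 47.2, 43.5 and 41.3 FPKM in CON_VD and 53.1, 59.7, 72.8 and 53.3 in CON_CS (log2 0.51 ± 0.13, adjusted p = 0.119). Eln, which encodes elastin and is outside the matrix list, was at 7, 7.26, 7.57 and 8.11 FPKM in CON_VD and 11, 13.9, 13.1 and 12.2 in CON_CS and rose (log2 0.67 ± 0.09, adjusted p = 0.0287). Of 29 matrix genes on the list, 27 were above 0 with a median of 0.19 (0.12 without CON_CS replicate 1 and 0.13 without CON_VD replicate 2), among them Postn, periostin, at 27.6 ± 4.29 against 39.1 ± 6.32 FPKM (log2 0.49 ± 0.14, adjusted p = 0.14). Clec14a, an endothelial lectin outside the lists, was at 3.86, 4.48, 3.77 and 3.22 FPKM in CON_VD and 6.29, 6.59, 6.61 and 6.48 in CON_CS and rose (log2 0.64 ± 0.09, adjusted p = 0.0333). Fibroblast and endothelial markers had 19 of 21 above 0 (median 0.19), and none passed.

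Enteroendocrine genes had 15 of 16 below 0, against 44.1% of all genes (median -0.26). Sst, somatostatin, was at 3.89, 3.76, 8.35 and 7.36 FPKM in CON_VD and 1.43, 2.52, 2.08 and 2.19 in CON_CS (log2 -1.11 ± 0.24, adjusted p = 0.0851) and Insl5, a hormone of distal colon L cells, at 145, 136, 136 and 108 FPKM in CON_VD and 68.4, 90.2, 97.8 and 90.2 in CON_CS (log2 -0.6 ± 0.14, adjusted p = 0.0931). Ranges were apart for both. Of 8 enteric neuron and glia genes, 7 were below 0 (median -0.37), and Prph, a neuronal filament protein, was at 4.9, 4.47, 5.23 and 4.68 FPKM in CON_VD and 2.89, 3.72, 2.46 and 3.15 in CON_CS (log2 -0.53 ± 0.11, adjusted p = 0.0752). Erythrocyte genes had a median of -1.56. Hbb-bt, a beta globin close in sequence to Hbb-bs, was at 69.5, 10.7, 21.5 and 22.3 FPKM in CON_VD and 5.7, 3.94, 3.02 and 9.08 in CON_CS (log2 -2.08 ± 0.50, adjusted p = 0.107), with the highest value in CON_VD replicate 1, and the median was -1.10 without that library. Smooth muscle genes had a median of 0.04, which was -0.01 under median-of-ratios scaling and lay between -0.04 without CON_VD replicate 4 and 0.21 without CON_VD replicate 3. The part of blood, nerve and muscle in the results above was not tested.

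Metabolic and early response lists gave no call either. Fatty acid oxidation had 22 of 31 genes below 0 (median -0.12), immediate early genes 15 of 18 below 0 (-0.26) and glycolysis and hypoxia genes 21 of 28 above 0 (0.11, with 0.06 without CON_VD replicate 4 and 0.04 without CON_CS replicate 3). Position along the colon is marked by Hox genes. None of 19 compared passed, 14 were above 0 and the median was 0.17, with 0.06 without CON_CS replicate 1 and 0.09 without CON_VD replicate 3. Hoxd13, the most distal member, was at 61.3, 86.8, 66.4 and 32.4 FPKM in CON_VD and 83.3, 82.1, 82.9 and 65.8 in CON_CS (log2 0.42 ± 0.26, adjusted p = 0.401), Hoxd11 at 5.83, 8.59, 5.46 and 1.7 FPKM in CON_VD and 8.36, 9.91, 12.5 and 8.31 in CON_CS (log2 0.87 ± 0.34, adjusted p = 0.217) and Hoxd10 at 8.26, 11.5, 7.21 and 2.9 FPKM in CON_VD and 9.11, 11.2, 14.9 and 11 in CON_CS (log2 0.66 ± 0.32, adjusted p = 0.288). In each, a single CON_VD library, replicate 4, held the lowest value. Hoxb6, of more proximal gut, was at 2.02 ± 1.02 against 3.67 ± 0.925 FPKM (log2 0.67 ± 0.24, adjusted p = 0.196), and Hoxa5 at 7.75 ± 0.93 against 5.78 ± 1.5 FPKM (log2 -0.39 ± 0.16, adjusted p = 0.234). Of the adipocyte list, Cfd was at 10.5, 0.214, 47.8 and 6.92 FPKM in CON_VD and 0.395, 2.58, 1.85 and 0 in CON_CS and Car3 at 3.51, 0.0594, 29.5 and 4.67 FPKM in CON_VD and 0.425, 1.23, 0.491 and 0.165 in CON_CS, both highest in CON_VD replicate 3. Of the male accessory gland list only Spink1, which the gut also makes, was compared, and 12 of its 14 genes in the table were above 0 in some water library.

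The same delivery contrast can be read under DSS, in 8 libraries that the water comparison does not use. There 1923 of 14313 genes passed (13.4%), 1130 higher (7.89%) and 793 lower (5.54%) in DSS_CS. Of 27 epithelial identity genes, 11 passed downward and 0 upward there, with a median log2 difference of -1.105. Their mean log2(FPKM + 1) was 4.727, 5.446, 4.505 and 4.936 in DSS_VD and 4.633, 3.274, 3.644 and 4.012 in DSS_CS, against 5.716 to 5.867 on water. The part of this in the DSS differences of single genes below was not tested. Of the 54 water genes 49 could be compared there, and 27 had the same sign (55.1%), against 6503 of 12562 (51.8%) of all genes compared in both. Of genes higher on water 9 of 24 kept their sign, and of genes lower on water 18 of 25. Passing in both were 9 genes: Aqp8, Ces2e, Slc16a5, Ighv1-20 and Itpripl2 with the same sign, and B3gnt5, Cpne8, Ephb6 and Fam124a with the opposite one. Cpne8 and Fam124a, both under 5 FPKM on water, are named here after their values were seen. Aqp8 was at 298, 98.4, 45.4 and 24.6 FPKM in DSS_VD and 12.1, 2.43, 13.2 and 13.8 in DSS_CS, a log2 difference of -2.97 ± 0.78 (adjusted p = 0.0421). Ces2e was at 64.5, 47.3, 22.1 and 36.8 in DSS_VD and 8.77, 1.09, 5.09 and 5.19 in DSS_CS (-2.95 ± 0.48, adjusted p = 0.0313). These values do not overlap between the DSS groups. B3gnt5, higher on water, was at 18.6, 23.6, 13.3 and 16.3 in DSS_VD and 7.86, 3.63, 5.02 and 7.93 in DSS_CS (-1.44 ± 0.25, adjusted p = 0.0313). The DSS count rested on single libraries too, from 0 to 2054 when 1 library was left out, and was 6 without DSS_CS replicates 3 and 4.

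The difference between the 2 delivery effects, fitted on all 16 libraries as the effect under DSS minus that on water, passed for 2015 of 15233 genes (13.2%), 1017 upward (6.68%) and 998 downward (6.55%). For the 54 genes it passed in 32, and in 31 of these its sign was opposite to the water effect. The 54 were chosen for their water difference, which this contrast contains, so these counts are a description only. For genes near 0 under DSS, among them Ang4, Cyp2c69 and Hsd3b3, the added 1 FPKM holds the DSS difference near 0 whatever the fold, and for Mptx1 and Mptx2, at most 3.85 FPKM there, it makes the DSS difference smaller than the fold. Ang4 was at 0.323, 0.358, 0.453 and 0 FPKM in DSS_VD and 0.117, 0.0881, 0.135 and 0.0881 in DSS_CS, under the level at which genes were compared there (difference of effects 7.13 ± 0.86, adjusted p = 0.00221). Mptx1 was at 1.5, 1.36, 1.74 and 1.2 in DSS_VD and 0.213, 0.0781, 3.57 and 1.68 in DSS_CS (4.98 ± 0.83, adjusted p = 0.00705). Aldh1a3, higher in CON_CS on water, was at 41.9, 144, 77.1 and 69.6 in DSS_VD and 73.8, 31.3, 26.2 and 28.8 in DSS_CS (-3.01 ± 0.51, adjusted p = 0.00734). All 8 DSS values of Aldh1a3 were above its highest water value of 19.5 FPKM. Cd55 was at 41.6, 93.1, 46.5 and 45.6 in DSS_VD and 49.5, 28.8, 28 and 29.9 in DSS_CS (-1.62 ± 0.33, adjusted p = 0.0118), again all above the highest water value. Dpep1, lower in CON_CS on water, was at 7.13, 4.06, 10 and 11.8 in DSS_VD and 7.84, 20.3, 17.2 and 16.2 in DSS_CS (3.2 ± 0.54, adjusted p = 0.00731). Of the 54, Ces2e was the 1 gene whose water fall was larger under DSS by this test (-1.87 ± 0.53, adjusted p = 0.0326).

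**Figure D5:**
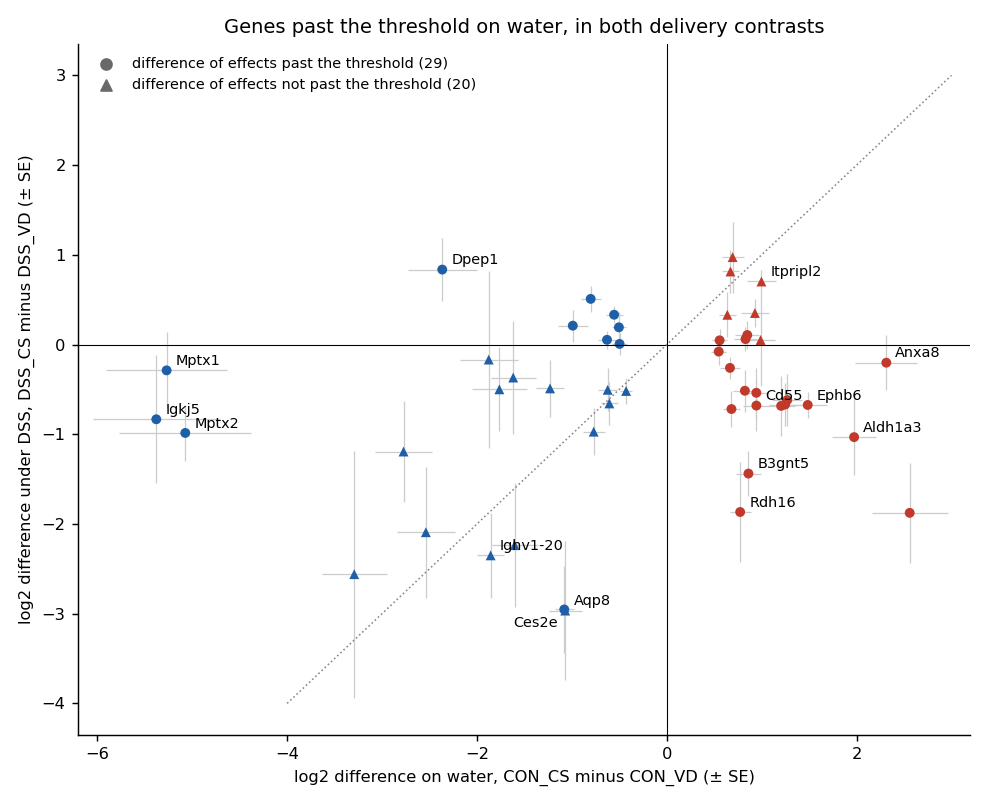
Each point is 1 of the 49 genes past the threshold on water that could also be compared under DSS, with its water log2 difference across and its DSS log2 difference upward, both cesarean minus vaginal with SE bars. Blue points fell and red points rose on water, circles passed the test of the difference between the 2 effects, and the dotted line marks equal effects. Of the 24 red points 15 lie under 0, Mptx1 and Mptx2 lie far from the dotted line, and Ces2e and Aqp8 lie under it.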

How the data were processed

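Colon RNA from 16 mouse libraries, 4 in each of 4 groups, was sequenced. The deposited table gives the authors' FPKM per gene for 39328 genes, of which 39181 identifiers have a symbol. Cutadapt, FastQC and GRCm38 are listed in the submitters' processing notes. No source used here names the aligner, the quantification tool or the gene annotation. Low FPKM values shared no common step between libraries (at most 0.978% of 12971 genes had 1 ratio), so reads were not recovered, depth is unknown and no interval for counting error is given.

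Genes with an FPKM of at least 1 in at least 4 of the 8 libraries compared were kept, 1 was added and log2 taken, and limma 3.58.1 in R 4.3.3 was fitted with an intensity trend across all kept genes, without covariates. Benjamini-Hochberg adjustment ran over all kept genes, and 0.05 was the threshold. CON_CS was compared with CON_VD on 8 libraries, DSS_CS with DSS_VD on 8, and the difference between these effects on all 16. The fitting code was tested on simulated data. Positions are from GENCODE M21 (GRCm38) and promoter sequences from RefSeq (GRCm38.p6). Tables were summarised with pandas 2.3.3 and numpy 2.4.6 and drawn with matplotlib 3.10.9.

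Genes are named by 3 rules. The first takes up to 20 genes per direction that passed with a mean of at least 5 FPKM in the higher group, without immunoglobulin and predicted genes. The second takes, from each of 48 lists, the members that passed and up to 3 of smallest p, of which the text gives a selection made with their values seen. The third takes the members above 0 of the antibacterial, antibody-secreting, ILC3, accessory gland, adipocyte and Hox lists, here given by counts with examples. Genes outside these rules are marked where they appear. The members and lists were chosen with earlier results of these data known. Alternatives covered the pseudocount, the filter, the scaling, the variance model, the replicate block and each library left out.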

Additional observations from a re-analysis of the deposited data

Results flagged for a closer look

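In 10 of 228 groups of 4 libraries, over the 114 genes named and compared, 1 library lay far from the other 3 of its group. Chance alone marks about 1 in 20 groups of this kind. Aqp4 was at 31.5 FPKM in CON_CS replicate 1, against 4.45 to 7.94, and Car3 was at 29.5 FPKM in CON_VD replicate 3, against 0.0594 to 4.67. Foxd2 was at 11.8 FPKM in CON_VD replicate 4, against 7.66 to 8.27, and Gm15674 was at 1.22 FPKM in CON_VD replicate 2, against 0.541 to 0.614. Hoxd13 was at 65.8 FPKM in CON_CS replicate 4, against 82.1 to 83.3, and Igha was at 348 FPKM in CON_CS replicate 2, against 67.9 to 85.7. Igkc was at 1007 FPKM in CON_CS replicate 2, against 218 to 309.8, and Lyz1 was at 17.7 FPKM in CON_VD replicate 1, against 2.28 to 3.65. Naip2 was at 18.9 FPKM in CON_VD replicate 2, against 12.4 to 13.5, and Stard4 was at 39.1 FPKM in CON_CS replicate 2, against 35.9 to 36.5.

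For 58 of the named genes the effect of cesarean birth differed between water and DSS by the limma test on all 16 libraries, given here as the effect under DSS minus that on water on the log2(FPKM + 1) scale. Of these 26 passed the threshold on water and were chosen for that effect, which is part of this difference. The other 32 did not pass there, but most, such as Ect2, Naip2 and Sst, were named for a small p on water within their list. Their water effect was thus selected too, and the count of 58 among 114 named genes is a description only. Over all genes compared, 13.2% passed this test. For genes that fell on water the values were 7.13 for Ang4, -1.87 for Ces2e, 1.31 for Cpne8, 1.47 for Cyp2c69, 3.2 for Dpep1, 0.89 for Hagh, 1.41 for Hsd3b3, 4.55 for Igkj5, 1.2 for Mgst1, 4.98 for Mptx1, 4.09 for Mptx2 and 0.5 for Tepsin. Among them Ang4, Cyp2c69 and Hsd3b3 were too low to be compared under DSS alone, and for genes near 0 there the added 1 FPKM sets the value, so it says nothing of the fold. For genes that rose on water the values were -3.01 for Aldh1a3, -2.52 for Anxa8, -2.3 for B3gnt5, -1.62 for Cd55, -0.77 for Ctnnal1, -2.16 for Ephb6, -1.4 for Fam124a, -1.89 for Gm15674, -1.89 for Gm15675, -4.44 for Gm3054, -0.93 for Nedd9, -1.48 for Plat, -2.64 for Rdh16 and -0.63 for Xrn2. For genes not past the threshold on water with a water difference below 0 the values were 3.88 for Car3, -2.05 for Ces2a, -1.71 for Ces2c, 5.68 for Cfd, 1.08 for Ddit3, 0.91 for Dhrs3, 4.76 for Hbb-bt, 1.26 for Ly6c2, -2.39 for Pigr, 1.58 for Prph, 1.36 for Rbp4 and 1.8 for Sst. For those with a water difference above 0 they were -1.22 for Bub1b, -2.5 for Cldn8, -1.68 for Cyp2s1, -3.33 for Dmbt1, -1.88 for Dsg2, -1.87 for Duox2, -1.46 for Ect2, -2.58 for Gbp2, -2.1 for Il22ra1, -1.51 for Lrmp, -0.83 for Lss, -2.47 for Lypd8, -2.28 for Naip1, -1.87 for Naip2, -1.89 for Nlrc4, -0.78 for Pola1, -2.08 for Slc10a2, -1.51 for Slc4a4, -1.03 for Stard4 and -1.5 for Tpx2.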

How the results depend on the processing

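The number of calls on water was not stable. All 42 named genes past the threshold kept their sign under each of the alternatives in which they were tested. Their group ranges were apart, so only alternatives that scaled or quantile-normalized the libraries could have turned a sign. Each of the 42 stayed under the threshold in 7 to 16 of at most 21 alternatives. Pigr, which did not pass, turned from -0.06 to 0.039 when libraries were rescaled to the same sum and to 0.051 after quantile normalization, and ran from -0.218 to 0.043 with 1 library left out. On water the 54 calls became 3 without a filter on low values, 1405 with array weights (limma's weighting of libraries by their scatter) and 15 without CON_VD replicate 1 and CON_CS replicate 1 together, and they ran from 0 to 275 when 1 library was left out. Under DSS the 1923 calls became 3 when low genes were kept, 3855 when all 4 groups were fitted as 1 model and 6 without DSS_CS replicates 3 and 4, and ran from 0 to 2054 with 1 library left out. For the difference between the effects, the 2015 calls became 1042 without a filter and 1310 at a mean FPKM of at least 5, and ran from 1056 to 2515 with 1 library left out. The causes were not tested.

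Deviations of same-numbered CON_VD and CON_CS libraries correlated at -0.102, -0.134, 0.047 and -0.302, and those of differently numbered ones at -0.214 to 0.304. With so few pairs and unknown litters, these values can neither show nor exclude that the numbers pair the samples. With the replicate block, 7 genes passed on water, 2 under DSS and 1520 for the difference between effects.

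With 4 libraries a group, unknown depth and unknown litters, the calls are limited to differences that are large beside the spread of these samples.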
